A study of Mus musculus with 4 samples.

Results

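The genes described here build and move the motile cilia of airway ciliated cells, and their RNA was followed in cells taken from mouse lung as endothelial cells (ECs). They were chosen by symbol. Every gene named Dnah, Dnai, Tekt or Rsph with a number was taken, together with 18 named ciliated cell genes, which gave 40 of the 24063 genes in the tables. Of the 40 genes, 22 came from the families and 16 from the named symbols, and 2 more (Cfap43 and Cfap52) were found by RefSeq accession because the tables list them as Wdr96 and Wdr16. The dynein intermediate chain genes appear in the tables under older names, such as Dnaic1 and Dnaic2, and were described with the other genes of motile cilia. The gene listed as Spag6 carries the accession that RefSeq now assigns to Spag6l on chromosome 16.

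The study asked how gene expression in lung ECs changes during the growth of the remaining lung after unilateral pneumonectomy (PNX). Sham-operated mice underwent thoracotomy alone, and in PNX mice the left lung was tied off and removed. Both groups were C57BL6 mice (C57BL6J in the study's methods), labelled 8 week old and male, without any engineered allele, and received meloxicam after surgery. Each group had 2 libraries, each pooled from the cells of 2 mice, and post-PNX cells were collected at 7 days. The tests therefore rest on the spread between 2 pools per group, and the spread between single mice was not measured. The lobes from which sham cells were taken are not given in the sources used here, whereas post-PNX cells can come only from the right lung. The same replicate numbers in both groups do not mark the same mice.

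The libraries held between 41367438 and 50952879 counts with 1 transcript per gene, so that the lowest level that can be told from 0, 3 counts, lay between 0.0589 and 0.0725 CPM (counts scaled to a fixed library size). Intervals and floors of this kind cover counting error only. Pecam1, which encodes the CD31 antigen of the selection, had between 81320 and 100203 counts per library, against 727 to 1548 for Foxj1, the ciliated cell regulator. Of 46 genes on chromosome Y, 0 had any count in any library, and Xist, the RNA of the inactive X chromosome, had between 29890 and 36875 counts. This goes against the label of male mice in all 4 libraries alike, so results without such libraries could not be given.

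A motile cilium is a microtubule axoneme in which dynein arms on the outer doublets generate the beat. Radial spokes and a central pair apparatus control the beat, and ruler and nexin link proteins set the spacing of the arms and hold the doublets together. In the lung these cilia are borne by multiciliated cells of the airway, where multicilin (Mcidas) starts the multiciliated program, and Foxj1 with RFX factors switches on the axonemal genes. ECs do not build motile axonemes, and several components have separate forms in the sperm flagellum.

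The letters that forkhead and RFX factors prefer can be seen in the promoters of several of these genes. RefSeq windows from 250 bases before to 50 bases after the start (GRCm38.p6, the assembly also called mm10) were available for 36 of the 40 genes, in 39 windows. A core of the RFX X-box, GTTGCCA or TGGCAAC on the other strand, occurred in 8 of the 39 windows (20.5%), and in 1439 of all 32851 windows (4.38%). A forkhead core, TGTTTAC or GTAAACA, occurred in 4 of 39 (10.3%), against 1199 of all windows (3.65%). These searches do not overlap in their letters. The examples show genes that fell and both genes with a match that did not pass the test. The matched letters are in capitals, and each stretch is written 5′ to 3′ on the strand of the gene.
Sntn, RFX core, chr14:13670794-13670833 (+): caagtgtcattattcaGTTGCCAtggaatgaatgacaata
Sntn, forkhead core, chr14:13670626-13670663 (+): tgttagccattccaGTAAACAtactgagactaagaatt
Drc1, RFX core, chr5:30281365-30281404 (+): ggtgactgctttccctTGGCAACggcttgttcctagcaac
Hydin, RFX core, chr8:110266947-110266986 (+): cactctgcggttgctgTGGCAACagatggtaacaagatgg
Tekt1, RFX core, chr11:72361874-72361913 (-): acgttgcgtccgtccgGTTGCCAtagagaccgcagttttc
Mcidas, RFX core, chr13:112993657-112993696 (+): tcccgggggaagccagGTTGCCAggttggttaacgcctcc
Dnah17, forkhead core, chr11:118129397-118129436 (-): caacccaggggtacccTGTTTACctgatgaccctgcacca
Sntn was the gene with both kinds of letters. Of the 11 genes with either kind of letters, 9 were lower after PNX by adjusted p under 0.01, namely Sntn, Drc1, Hydin, Tekt1, Cfap44, Dnah10, Dnah7b, Cfap43 and Tekt3, and Mcidas and Dnah17 did not pass. Of the 24 genes tested whose windows held neither, 20 were lower, 1 was higher and 3 did not pass. By the same adjusted p, 27.8% of all genes tested were lower and 29.3% higher. Most members were lower with or without the letters, and the shares were not compared by a test. A match is a run of letters and not a measured binding site.

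Most axoneme genes were lower in post-PNX than in sham libraries, with median log2 fold changes by role from -0.97 in the central apparatus and in the ruler and link proteins to -0.34 in the radial spokes and -0.12 in the transcription factors. Of the 40 genes, 39 passed the filter on low counts, and Rsph6a, a radial spoke gene known from testis, had 0 counts in every library. An adjusted p under 0.01 with a lower level after PNX was found for 33 of the 39 genes, against 27.8% of all 16208 genes tested (Benjamini-Hochberg adjusted p of the edgeR quasi-likelihood test). Only Dnah8 was higher at the same adjusted p, against 29.3% of all genes. With a log2 fold change under -1 in addition, 10 of the 39 were called lower, against 1.66% of all genes, and 0 were called higher, against 5.90%. At an unadjusted p under 0.05 with no limit on fold change, Dnah8 and Mcidas were higher.

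The median log2 fold change of the 39 genes was -0.84, with quartiles of -1.0 and -0.46. Over all genes tested the median was 0.00, with quartiles of -0.21 and 0.23. Both post-PNX libraries lay below both sham libraries in 33 of the 39 genes, against 40.5% of all genes. The fold threshold lay at the lower quartile of the group, and in 19 of the 39 genes the range of 2 standard errors around the log2 fold change included -1. The genes just inside it were Ccdc40 and Spag6 (both -1.03), and those just outside were Drc1 and Hydin (both -0.97). Setting library sizes by 12 endothelial markers instead of TMM shifted all genes by a median of 0.24 on the log2 scale. Under that scaling 1 axoneme gene, Dnah7a, was called lower and 28 were lower by adjusted p alone, with Rfx3, Rsph9, Spef2, Tekt2 and Tekt3 no longer among them, while Mcidas was called higher. By adjusted p alone Dnah8, Dnah17, Rsph3a, Rfx2 and Mcidas were then higher. Over all 16208 genes tested, that scaling called 90 lower and 1294 higher, against 269 and 957 with TMM. The shares of all genes by adjusted p alone were not counted under it.

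**Figure D1:**
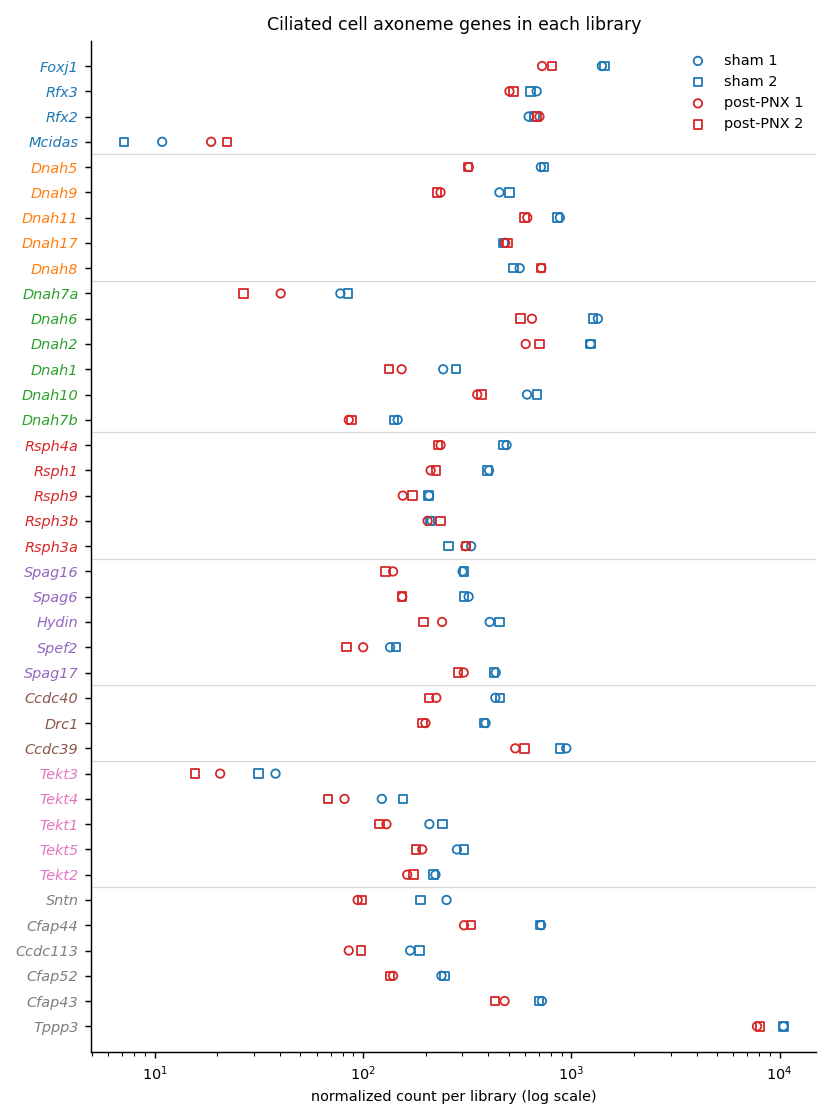
Normalized counts (log axis) of the 39 axoneme genes tested in each of the 2 sham (blue) and 2 post-PNX (red) libraries, with genes grouped by role (label colour and grey lines). In 33 genes both red symbols lie to the left of both blue symbols, and Tppp3 stands far above the rest.

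The transcription factors did not change together. Foxj1, on chromosome 11 from 116330704 to 116335499, drives motile ciliogenesis. It had 1402 and 1447 normalized counts in sham and 724 and 810 in post-PNX libraries, so the groups were well apart. Its log2 fold change was -0.90 (standard error, SE, of 0.051, adjusted p = 1.2e-23). Rfx3, which serves motile and primary cilia, fell less, from 682 and 636 to 505 and 527 (log2 fold change -0.36, adjusted p = 3.4e-06). Rfx2 had 624 and 668 in sham and 704 and 685 after PNX, a log2 fold change of 0.11 that did not pass (SE 0.062, adjusted p = 0.119).

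Mcidas, on chromosome 13 from 112993581 to 113000394, was close to the limit of detection. It had 12 and 7 counts in the sham and 19 and 20 in the post-PNX libraries, and passed the filter with both post-PNX libraries and 1 sham library. The groups did not overlap, in the direction opposite to Foxj1, with a log2 fold change of 1.15 (SE 0.41, adjusted p = 0.011), which missed the threshold of 0.01. In deposited TPM, which corrects for transcript length, the mean level of Foxj1 was 19.2 in sham and 10.1 after PNX. Mcidas had mean TPM levels of 0.133 and 0.295, so Foxj1 stood 144 times higher in sham and 34.2 times higher after PNX.

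The outer arm dynein heavy chains, the motors of the outer arms, split into those known from the airway and those known from sperm. Dnah5, on chromosome 15 from 28154854 to 28472045, had 715 and 738 normalized counts in sham and 322 and 320 after PNX. Its log2 fold change was -1.18 (SE 0.072, adjusted p = 1.9e-22). Dnah9 fell from 452 and 506 to 236 and 227 (log2 fold change -1.04, adjusted p = 2.0e-16), and without the second sham library its value was -0.96. These airway motors lost a similar share of their RNA, with no overlap between groups. Dnah11, also an airway heavy chain, fell less, from 882 and 859 to 615 and 595 (log2 fold change -0.52, adjusted p = 8.7e-12).

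The sperm-type heavy chains behaved differently in their values. Dnah8, on chromosome 17 from 30626935 to 30875762, had 565 and 527 normalized counts in sham and 718 and 717 after PNX. It was the only member with a significant rise, a log2 fold change of 0.39 (SE 0.063, adjusted p = 2.2e-07). Dnah17 had 477 and 472 in sham and 482 and 495 after PNX (log2 fold change 0.04, adjusted p = 0.637). Its values in all 4 libraries lay between 472 and 495. In sham libraries the mean TPM of Dnah8 (1.30) and Dnah17 (1.10) was close to that of Dnah9 (1.21) and under that of Dnah11 (2.14) and Dnah5 (1.61).

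All 6 inner arm heavy chains tested, which shape the waveform of the beat, were lower by adjusted p under 0.01 (27.8% of all genes). Dnah6, on chromosome 6 from 73017603 to 73222227, had 1343 and 1269 normalized counts in sham and 648 and 571 after PNX (log2 fold change -1.10, SE 0.056, adjusted p = 3.4e-26). Dnah2, with nearly the same sham level of 1237 in each library, fell to 604 and 703 (log2 fold change -0.93, adjusted p = 1.3e-22). Dnah1 and Dnah10 had log2 fold changes of -0.85 and -0.84. Dnah7a fell from 86 and 83 counts to 41 and 24, with a log2 fold change of -1.25 (SE 0.22, adjusted p = 7.9e-07). This was the largest fall of the 39 genes with all 4 libraries, but without the second post-PNX library it was -1.01, smaller than those of Sntn (-1.23), Cfap44 (-1.22), Dnah5 (-1.17) and Spag16 (-1.12). Dnah7b had a log2 fold change of -0.73 (SE 0.15). These copies share sequence. Of the windows of 75 bases along the Dnah7a transcript 27.8% also occurred in transcripts of other genes, mostly Dnah7b. For Dnah7b the share was 34.3%, mostly with Dnah7c (25.8%), which is not among the members. The separate values of Dnah7a and Dnah7b are therefore uncertain.

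Among the radial spokes the head proteins fell. Rsph4a had 489 and 474 normalized counts in sham and 236 and 230 after PNX (log2 fold change -1.05, SE 0.085, adjusted p = 6.1e-17). Rsph1 fell from 403 and 396 to 211 and 224 (log2 fold change -0.88, adjusted p = 5.1e-13). The third head gene, Rsph9, changed less, from 208 and 207 to 155 and 173 (log2 fold change -0.34, SE 0.12, adjusted p = 0.0075), and did not pass with DESeq2's Wald test, with counts summed over transcripts or without either sham library or the first post-PNX library. The stalk genes Rsph3a and Rsph3b had log2 fold changes of 0.08 (adjusted p = 0.491) and 0.05 (adjusted p = 0.718). The sham libraries of Rsph3a, with 331 and 257, enclosed the post-PNX values of 311 and 313, so these groups overlapped. Rsph3a and Rsph3b lie on chromosome 17 and are near copies, with 71.7% and 70.2% of their 75-base windows shared with other transcripts, mostly with each other.

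The central apparatus, ruler and link genes were all lower by adjusted p under 0.01 (27.8% of all genes). Spag16 had 301 and 306 normalized counts in sham and 140 and 128 after PNX, a log2 fold change of -1.18 (SE 0.11, adjusted p = 1.2e-14). Spag6 fell from 322 and 305 to 154 and 154 (log2 fold change -1.03, and -0.98 without the first sham library). Hydin, a very large protein of a central pair projection, fell from 406 and 453 to 240 and 195 (log2 fold change -0.97). Spef2 and Spag17 fell less, with log2 fold changes of -0.59 and -0.54, and Spef2 did not pass with DESeq2's Wald test or without the second post-PNX library. Ccdc40, which forms the ruler with Ccdc39, had 432 and 455 in sham and 225 and 207 after PNX (log2 fold change -1.03, adjusted p = 7.0e-16), with -0.98 when the second post-PNX library was left out. Drc1 of the nexin link fell from 388 and 381 to 200 and 193 (log2 fold change -0.97), and Ccdc39 from 947 and 884 to 539 and 596 (log2 fold change -0.70, adjusted p = 1.1e-15). The partners Ccdc39 and Ccdc40 therefore differed in the size of the fall. However, 27.0% of the windows of Ccdc39 also occurred in Ttc14, on the same or the opposite strand. Whether reads of Ttc14 were counted there was not tested. The same limit holds for Spag17, with 13.8% of its windows shared, mostly with Wdr3 (9.58%).

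All 5 tektins, filaments within the doublet wall, were lower by adjusted p under 0.01 (27.8% of all genes). Of the 5, 0 also passed the fold threshold, as 1.66% of all genes did on the lower side. Their log2 fold changes were -0.93 in Tekt3, -0.88 in Tekt4, -0.84 in Tekt1, -0.65 in Tekt5 and -0.39 in Tekt2. Tekt5 had 283 and 305 normalized counts in sham and 193 and 179 after PNX. Tekt3 rested on few reads, with 42 and 31 counts in sham and 21 and 14 after PNX (SE 0.30, adjusted p = 0.0056). With DESeq2's Wald test, or without the first library of either group, neither Tekt2 nor Tekt3 passed, and Tekt3 was also lost without the second post-PNX library and with counts summed over transcripts. Tekt2 shared 12.7% of its windows with another gene model, Gm12945.

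**Figure D2:**
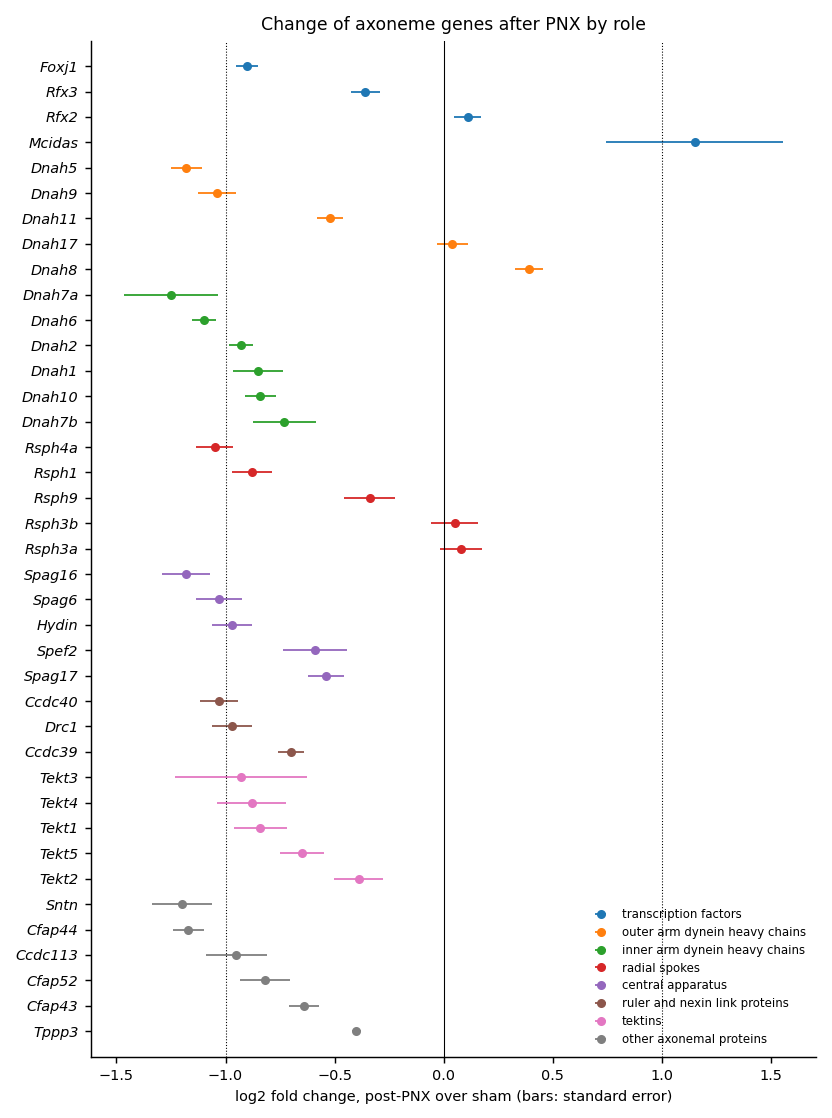
Log2 fold change of post-PNX over sham libraries for each axoneme gene tested, with its standard error as a bar, grouped and coloured by role. Dotted lines mark -1 and 1. Most genes lie between -1.25 and -0.34, whereas Dnah8, Dnah17, Rsph3a, Rsph3b, Rfx2 and Mcidas lie to the right of 0.

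Of the remaining members, Sntn encodes sentan, a protein of the tip of motile cilia. It lies on chromosome 14 from 13670876 to 13683148 and had 252 and 189 normalized counts in sham and 94 and 99 after PNX. The log2 fold change was -1.20 (SE 0.14, adjusted p = 1.2e-11). The sham libraries differed more from each other than in most members, and without the first sham library the value was -0.96. Cfap44, of the complex that tethers an inner arm dynein to the doublet, fell from 717 and 708 to 306 and 331 (log2 fold change -1.17, adjusted p = 5.2e-22). Its partner Cfap43 fell less, from 723 and 698 to 479 and 431 (log2 fold change -0.64, adjusted p = 8.7e-13). Ccdc113 and Cfap52 had log2 fold changes of -0.95 and -0.82.

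Tppp3, a tubulin-binding protein, was by far the most abundant member. It had 10435 and 10431 normalized counts in sham and 7790 and 8049 after PNX, a log2 fold change of -0.40 (SE 0.022, adjusted p = 4.6e-24). In sham libraries its mean TPM was 353, against a median of 3.58 over the 39 genes, and it held 37.4% of the counts on all members in each sham library and 41.6% and 42.3% in the post-PNX libraries. The next highest mean TPM levels in sham were those of Foxj1 (19.2), Rsph1 (11.9), Ccdc39 (8.78) and Rsph9 (7.63). The lowest, apart from Mcidas, was that of Dnah7a (0.230).

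Summed over the 40 genes, the level was 605 CPM in each sham library and 406 and 413 CPM in the post-PNX libraries. The ratio of the means was 0.677. The 2 libraries of a group lay close together in these sums, with SDs of 0.451 CPM in sham and 4.59 CPM after PNX. Whether pools of other mice would lie as close was not tested. Without Tppp3 the sums were 379 and 378 CPM in sham and 237 and 238 CPM after PNX, a ratio of 0.627. With 2 libraries in each group an exact permutation test cannot go below p = 0.333 (two-sided), so no test was made on sums. In libraries of pooled cells, fewer ciliated cells and less of these RNAs per cell cannot be told apart.

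The size of the fall was shared by many members. Of the other 38 genes tested, 19 had a log2 fold change within 0.25 of that of Foxj1 and 29 within 0.50. The largest distances above Foxj1 were those of Mcidas (2.05), Dnah8 (1.29), Rfx2 (1.00), Rsph3a (0.97), Dnah17 (0.94) and Rsph3b (0.94). The largest below were those of Dnah7a (-0.36), Sntn (-0.30), Dnah5 (-0.28) and Spag16 (-0.28). These distances are differences of log2 fold changes and were not tested.

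**Figure D3:**
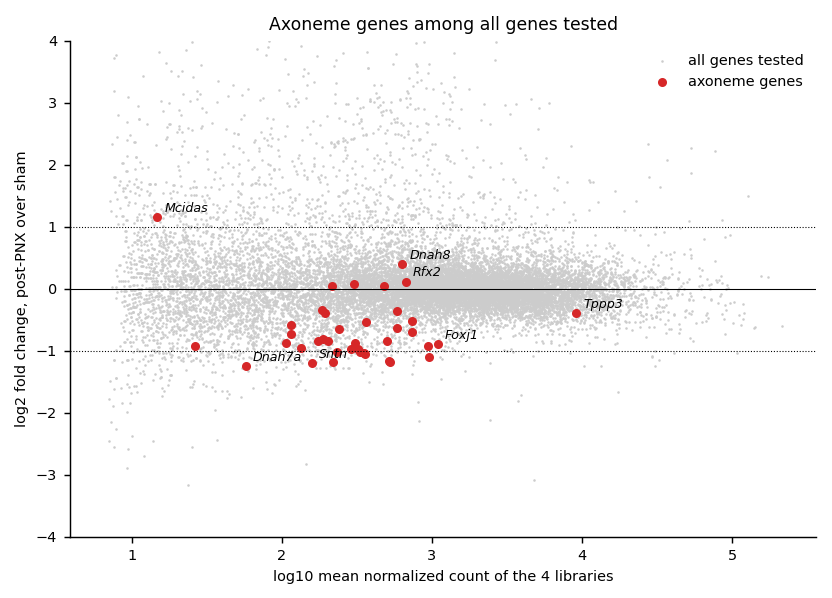
Log2 fold change of post-PNX over sham libraries against the log10 mean normalized count, for all 16208 genes tested (grey) and the 39 axoneme genes (red), with dotted lines at -1 and 1. The axis is limited to 4 in either direction, which leaves out 47 genes. The axoneme genes lie mostly below 0 at low to middle counts, with Mcidas at the low end and Tppp3 at the high end.

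A list of other genes of motile cilia gave similar values. Of its 86 genes 83 were found in the tables and 80 were tested. By adjusted p under 0.01, 60 were lower and 3 higher, against 27.8% and 29.3% of all genes. With the fold threshold as well, 15 were called lower and 0 higher, against 1.66% and 5.90%. The median log2 fold change was -0.67. Among early regulators of the multiciliated state Trp73 and Gmnc fell, whereas the member Mcidas had a log2 fold change of 1.15 that missed the threshold. Trp73 had 164 and 152 normalized counts in sham and 87.5 and 81.3 after PNX (log2 fold change -0.90, adjusted p = 1.5e-07). Gmnc, which acts upstream of Mcidas, fell from 35.3 and 30.6 to 13.8 and 21.2 (log2 fold change -0.94, adjusted p = 0.0072).

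Of the centriole amplification genes, Ccno and Deup1 did not pass, with log2 fold changes of 0.20 (adjusted p = 0.304) and -0.21 (adjusted p = 0.335). Ccdc78, of the same kind, fell (log2 fold change -0.49, adjusted p = 2.7e-05). The largest fall in the list was that of Kif27, a kinesin-like gene, from 306 and 328 to 141 and 122 (log2 fold change -1.27, adjusted p = 8.0e-16). The factors that assemble dynein arms in the cytoplasm differed from each other, with log2 fold changes of -1.16 in Lrrc6, -0.95 in Zmynd10, -0.49 in Dnaaf1 and 0.12 in Dnaaf2 (adjusted p = 0.173 in the last). The outer arm intermediate chains Dnaic1 and Dnaic2 fell with log2 fold changes of -0.62 and -0.76. The 3 genes that rose were Mns1 (0.77), Tuba1a (0.50) and Tubb4b (0.48); the last pair encode tubulins that many cells use. The summed level of the list was 928 CPM in sham and 958 CPM after PNX, of which the tubulins held the larger part in post-PNX libraries. Without them, a choice made after their values were seen, it was 496 and 349 CPM, a ratio of 0.703.

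Intraflagellar transport genes, whose products carry cargo in motile and primary cilia alike, did not shift as a group. All 29 genes of this list were tested, and 5 were lower and 5 higher by adjusted p under 0.01, against 27.8% and 29.3% of all genes, with 0 called in either direction past the fold threshold. The median log2 fold change was 0.00 and the values ran from -0.55 to 0.76. Traf3ip1 fell most, from 1470 and 1493 normalized counts to 1046 and 982 (log2 fold change -0.55, adjusted p = 5.3e-16). Kif17, at the upper end, had 14.5 and 18.4 normalized counts in sham and 21.6 and 34.5 after PNX (adjusted p = 0.0408). The summed level was 607 ± 4.88 (SD, n = 2) CPM in sham and 591 ± 2.28 (SD, n = 2) CPM after PNX.

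Markers of other cell types moved as well, and their part in the fall of the axoneme genes was not tested. Club and airway secretory cell markers, which come from the same airway lining, had a median log2 fold change of -0.91, with 12 of 16 genes lower and 1 higher by adjusted p under 0.01 (27.8% and 29.3% of all genes). Their sum went from between 3900 and 3912 CPM in sham to between 1835 and 1899 CPM after PNX, a ratio of 0.478. Scgb1a1, the main secretory product of club cells, fell with a log2 fold change of -1.04 (adjusted p = 2.5e-53). It held most of this sum, with 160145 counts in the first sham library against 21041 for Cyp2f2, the next highest. Basal cell markers were low, with mean sums of 4.65 CPM in sham and 8.98 CPM after PNX. Krt14 had 18 and 28 counts in sham and 264 and 233 after PNX, so the rise of the sum came from Krt14. Of the 6 tested, 2 were called lower, Krt5 (log2 fold change -2.46) and Krt15 (-1.65), against 1.66% of all genes. Another 2 were called higher, Krt14 (3.55) and Ngfr (1.14), against 5.90% of all genes. Dsg3 had 0 counts in every library.

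The counts that follow are by adjusted p under 0.01, by which 27.8% of all genes were lower and 29.3% higher. Alveolar markers had smaller medians. The medians were -0.48 in 11 type 2 genes, all lower by adjusted p under 0.01, and -0.45 in 10 type 1 genes, 9 of them lower and 1 higher. The ratios of their sums were 0.660 and 0.730. Shared epithelial genes had a median of -0.18, with 7 of 15 lower and 3 higher, and sums between 606 and 611 CPM in sham and between 589 and 608 CPM after PNX. The 3 higher were Krt7 (0.18), Krt8 (0.11) and Krt19 (0.24), and the 7 lower included Epcam (-0.48) and Nkx2-1 (-0.55). The sum of that list therefore mixed both directions. Mesothelial markers, which share Krt19 with that list, rose, with 7 of 7 higher and a ratio of sums of 2.09. Endothelial markers had a median of -0.25, 10 of 12 of them lower, and leukocyte markers one of 0.16. None of the defining markers of secretory, alveolar, endothelial, mesothelial or leukocyte lists was at 0 in every library.

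Set beside these lists, axoneme counts without Tppp3 came to 0.625 and 0.619 per shared epithelial count in sham and to 0.402 and 0.391 after PNX. Per secretory count they came to 0.0971 and 0.0967 in sham and to 0.125 and 0.130 after PNX. In every library pair the ratio per shared epithelial count was lower and that per secretory count higher after PNX than in sham. The shared epithelial sum mixed genes that rose and genes that fell, and Krt7 and Krt19, which rose, were among its highest genes. Scgb1a1 alone held most of the secretory counts. By medians, the axoneme genes without Tppp3 (-0.85) and the secretory markers (-0.91) fell by similar amounts.

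**Figure D4:**
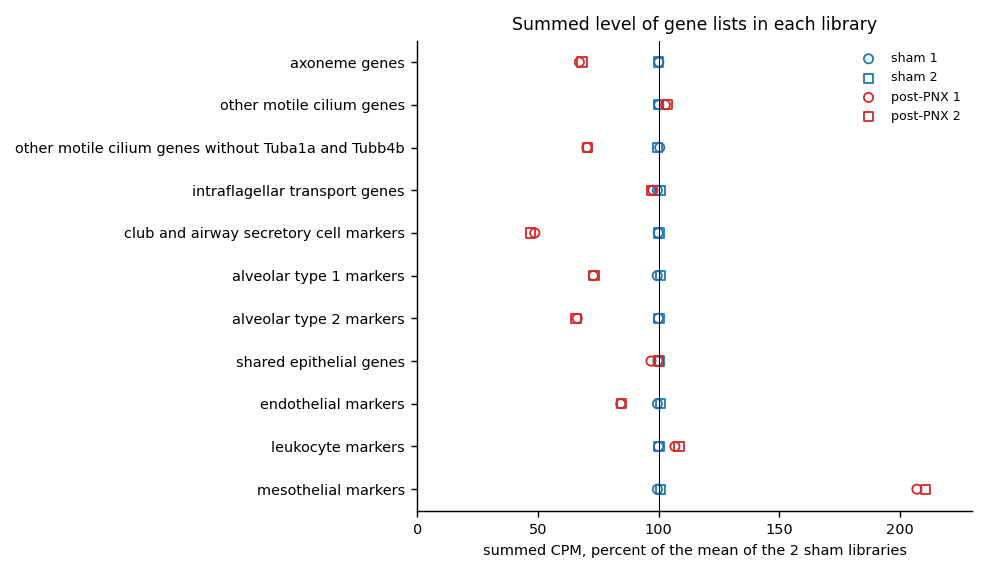
Summed CPM of each gene list in each library, as a percentage of the mean of the 2 sham libraries, which lie at about 100% (vertical line). In post-PNX libraries the axoneme genes lie at 67.1% and 68.2%, the secretory markers at 48.6% and 47.0%, and the mesothelial markers at 207% and 211%.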

How the data were processed

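The authors isolated lung cells with an antibody to CD31 and magnetic beads, made stranded mRNA libraries, sequenced them as paired ends and aligned the reads to mm10. The submitters' processing notes name STAR; its version and the counting program are not given in the sources used here. The authors deposited 3 values for each of 33068 RefSeq transcripts. As deposited by the authors, the counts are whole numbers of reads per transcript without normalization, and FPKM and TPM are scaled for depth and transcript length. Counts were used for all tests. The deposited TPM served to compare levels between genes, and the deposited FPKM served to recover transcript lengths.

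The transcripts of a gene repeat the same reads, so for each of the 24063 symbols the transcript with the largest summed count was kept. The totals then ran from 41367438 to 50952879 per library. Analysis used R 4.3.3 and edgeR 4.0.16. Genes were kept by filterByExpr (a minimum of about 10 counts in 2 libraries), normalized with TMM and compared between groups by the quasi-likelihood F test with no other term, with Benjamini-Hochberg adjustment over the 16208 genes tested. A gene was called with an adjusted p under 0.01 and a log2 fold change beyond 1, after the study's methods. Normalized counts are scaled to the mean library size, and summed CPM uses the same TMM scaling. The standard error is the log2 fold change divided by the square root of F.

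Alternatives were other scalings and filters, DESeq2 1.42.0, a block for replicate number, transcript counts summed per gene, other thresholds and each library left out. The members and the gene lists were chosen with earlier results of these data known. The members named are the transcription factors, the members called and those with a significant rise. In each role the 2 tested members with the highest mean TPM and those with the largest rise and fall were added. In other lists up to 4 genes were to be drawn from the 2 highest and the 2 most changed in each direction. Not all of these are named, so the most changed genes of several lists are left out. Members and list genes named beyond these were chosen after their values were seen. Promoters are RefSeq windows of GRCm38.p6, matched by symbol for 36 members. Shared sequence was counted in GENCODE M21 transcripts on both strands, so a window on the opposite strand of another gene also counts as shared.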

Additional observations from a re-analysis of the deposited data

How the results depend on the processing

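The 10 axoneme genes called lower stayed the same genes under DESeq2's size factors, library size alone, no filter, a mean of at least 50 counts, DESeq2's Wald test, the replicate block and counts summed over transcripts. Scaling to the endothelial markers left 1 called lower and 1 higher, and the other motile cilium genes at 1 in place of 15. Over all 16208 genes tested it called 90 lower and 1294 higher, against 269 and 957 with TMM. By construction it shifts every gene up, and 33 axoneme log2 fold changes stayed negative. It moved the medians to -0.60, -0.43 and 0.24 in axoneme, other motile cilium and intraflagellar transport genes, and the ratio of sums to 0.801. The edgeR test against a log2 fold change of 1 (glmTreat) called 0 axoneme and 0 other motile cilium genes. With no fold threshold 33 axoneme genes were lower and 1 higher, and 60 other genes were lower; with an adjusted p under 0.05 and the fold threshold, 1 axoneme gene (Mcidas) was higher. By adjusted p alone, DESeq2's Wald test found 29 lower, without Spef2, Rsph9, Tekt2 and Tekt3. Counts summed over transcripts gave a ratio of sums of 0.689. With each library left out, the axoneme median ran from -0.86 to -0.76 and the genes called lower from 9 to 12. Ccdc40 and Dnah9 were lost without the second sham library, Spag6 and Sntn without the first and Ccdc40 without the second post-PNX library. The intraflagellar transport median then ran from 0.01 to 0.02, and Rsph3a from -0.08 without the second sham library to 0.28 without the first. Replicate numbers do not pair the mice (correlation of deviations 0.024 over 13402 genes), and the block left 10 axoneme genes called lower and the median at -0.84. Axoneme genes had a median of 309 normalized counts, against 1003 in all genes tested, and a median standard error of 0.093, against 0.051, which limits calls near the threshold.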
